A study of Mus musculus with 25 samples.

Results

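The genes described are 10 that mark the mural cells of brain vessels, that is pericytes and smooth muscle cells: Pdgfrb, Notch3, Kcnj8, Abcc9, Rgs5, Vtn, Anpep, Acta2, Tagln and Myh11. They were chosen by symbol from the rows of the deposited count table, and all 10 were found among its 21720 genes. RNA was sequenced from the cortex of 25 male mice aged 6 months, 5 in each of 5 groups, after intraperitoneal injection once a day for 3 months. The combination group received (-)-Vestitol at 2.5 mg/kg together with Salviolone at 2.5 mg/kg, the vestitol group (-)-Vestitol at 5 mg/kg, the salviolone group Salviolone at 5 mg/kg, and the model control group vehicle. All 4 of these groups were B6C3 mice carrying APPswe and PSEN1dE9, a transgenic amyloid model in which both transgenes are driven by the mouse prion protein promoter, so that expression is mostly neuronal. The wild type group was C57BL/6J mice on vehicle, so strain and transgenes differ together between model control and wild type and cannot be told apart. Replicate numbers in the labels name single mice, so the spread given is between mice.

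Pericytes sit on capillaries and are wrapped in the basement membrane they share with the endothelium, while smooth muscle cells ring arterioles and arteries and set their diameter. Endothelial PDGF-B signals through the receptor PDGFRB to recruit and keep pericytes, and Jagged and Delta ligands signal through NOTCH3, which in smooth muscle maintains the contractile state; NOTCH3 mutations in humans cause CADASIL, an inherited small vessel disease. KCNJ8 and ABCC9 together form the vascular ATP-sensitive potassium channel, whose opening relaxes these cells, and ACTA2, TAGLN and MYH11 belong to their contractile apparatus.

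Total counts per library were 71606813 to 109776852 in combination mice, 65336993 to 78331946 in vestitol mice, 59376320 to 72743740 in salviolone mice, 77772965 to 93132986 in model control mice and 64008552 to 86378643 in wild type mice. The 3 highest totals belonged to combination mice 3, 4 and 5. App, which the transgene also adds to, averaged 4262 ± 354 CPM, that is counts scaled to library size, in model control mice against 1672 ± 165 CPM in wild type mice (SD, n = 5 each; log2 fold change 1.35, adjusted p 6.4e-12). Summed CPM of 5 cortical excitatory neuron markers lay between 3162 and 5008 in every library. Summed CPM of 10 hypothalamus markers, none of which was at 0 throughout any group, was 399 to 657 in combination mice, 76.6 to 130 in vestitol mice, 80.1 to 93.5 in salviolone mice, 78.9 to 254 in model control mice and 103 to 591 in wild type mice. Hypothalamus marker levels thus differed between libraries that all bear the label cortex, and their values stand beside the genes they moved with.

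The authors' FPKM were scaled by library size and gene length. Rgs5 had the highest FPKM of the 10, with 60.9 ± 8.61 FPKM (SD over 25 mice). Rgs5 encodes a regulator of G protein signalling that is abundant in brain pericytes. Vtn followed with 17.0 ± 2.39 FPKM and Pdgfrb with 16.1 ± 1.62 FPKM. These neighbours did not separate, Vtn being above Pdgfrb in 17 of 25 mice. Notch3 had 8.51 ± 1.20 FPKM and Myh11 4.41 ± 0.915 FPKM. The remaining members lay close together: Acta2 at 1.78 ± 0.389, Abcc9 at 1.78 ± 0.307, Kcnj8 at 1.60 ± 0.287, Anpep at 1.32 ± 0.340 and Tagln at 1.17 ± 0.219 FPKM. Each of these neighbouring pairs overlapped in range, and Acta2 was above Abcc9 in 12 of 25 mice. Counts behind these values ran from 182 to 9175 per gene and library. The spread between mice of one group was narrowest for Notch3, with a coefficient of variation of 9.35% within groups, and widest for Anpep, with 24.6%. All further levels are CPM scaled by TMM factors and compare mice, not genes.

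**Figure D1:**
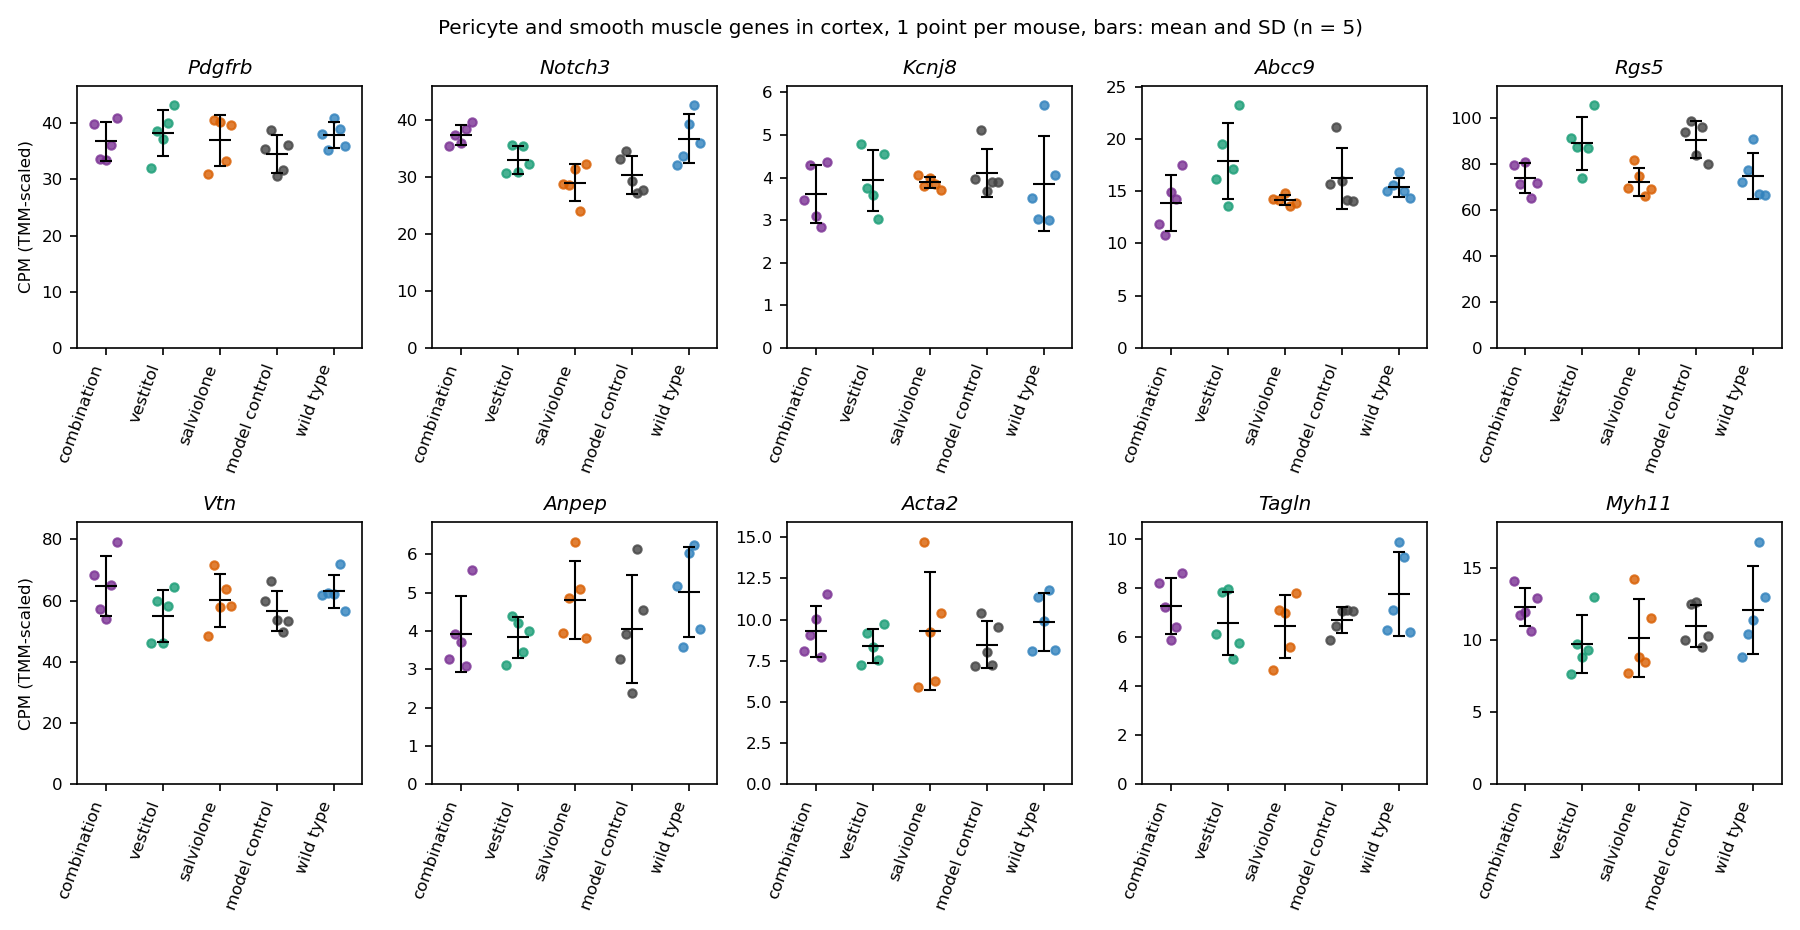
Level of each of the 10 genes in CPM (y axes, from 0) in combination, vestitol, salviolone, model control and wild type mice; each point is 1 mouse and the bars are the mean and SD of 5 mice. Notch3 was at 35.5 to 39.7 CPM in combination mice and 27.2 to 34.6 CPM in model control mice, and Rgs5 at 65.5 to 81.1 CPM in combination mice and 80.3 to 98.7 CPM in model control mice.

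Few of the 10 genes differed between groups, and those that did were Notch3, Rgs5 and Abcc9, by at most 0.37 on the log2 scale. Differences were tested with edgeR's quasi-likelihood F test in 1 fit over all 25 mice, two-sided, with Benjamini-Hochberg adjustment over the 16515 genes tested, and a gene was called at an adjusted p under 0.05. In combination against model control mice, 1 member was higher, Notch3, and 1 was lower, Rgs5. Of all tested genes 15.0% were called there, 7.83% higher and 7.13% lower, and 28.0% had an unadjusted p under 0.05. In vestitol against model control mice edgeR called 0 of the 10, with 0 at an unadjusted p under 0.05 and 0 by DESeq2. Of all genes 0% were called and 7.56% had an unadjusted p under 0.05. In salviolone against model control mice it called 0 of the 10, with 1 at an unadjusted p under 0.05 and 0 by DESeq2. Of all genes 0.0242% were called and 11.5% had an unadjusted p under 0.05. In model control against wild type mice 1 member was higher, Rgs5, and 1 was lower, Notch3. Of all genes 11.6% were called there, 5.37% higher and 6.21% lower, and 25.8% had an unadjusted p under 0.05. The share of members called, 2 of 10 in the combination and in the model control comparison, was thus near the share of all genes. The members' median log2 fold change was 0.10 for combination against model control (all genes 0.00) and -0.15 for model control against wild type (all genes -0.01). The comparisons share the model control mice. In bulk libraries such as these, fewer cells of a type and less RNA per cell cannot be told apart, for any gene given here.

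**Figure D2:**
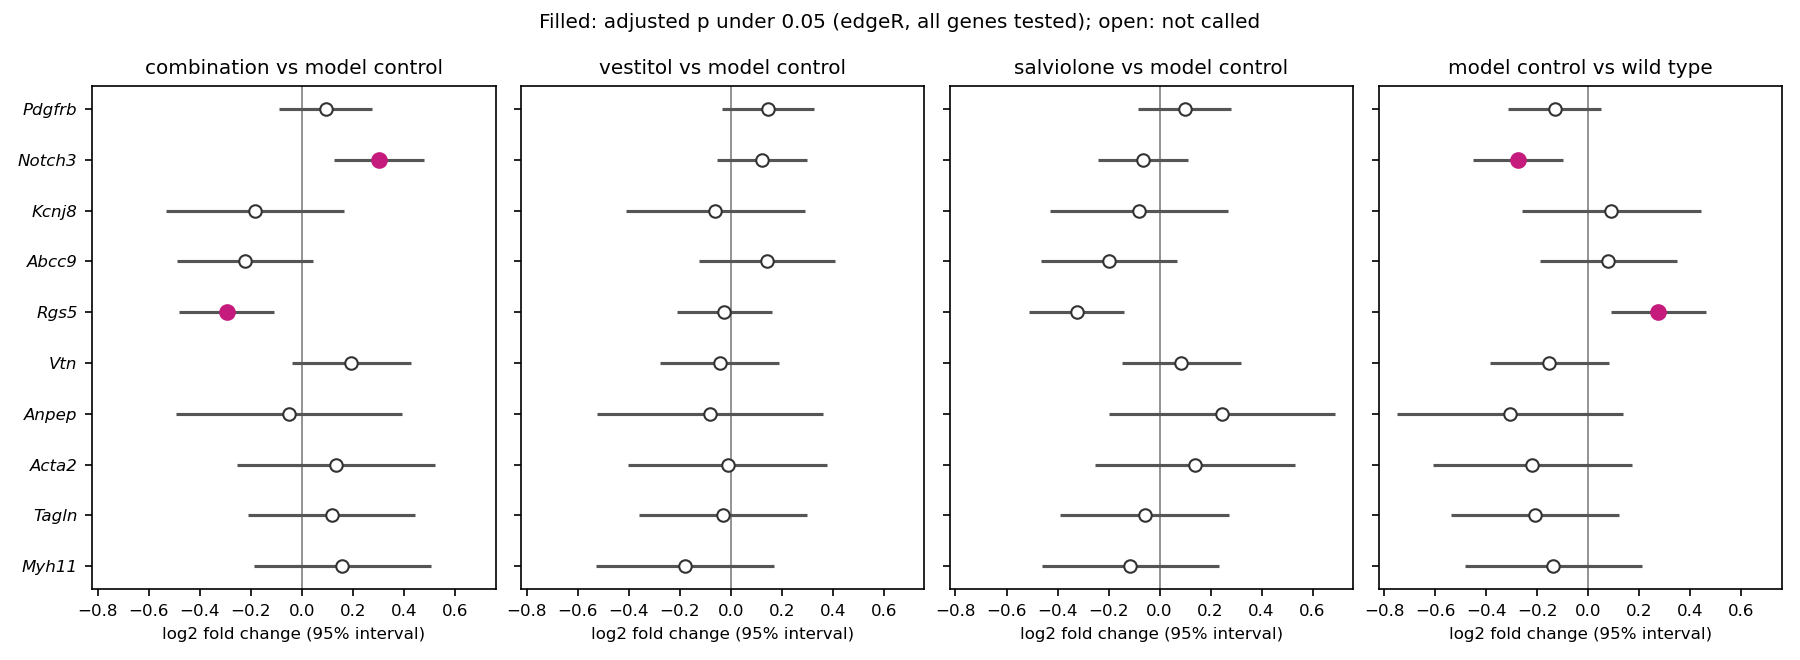
Log2 fold change of each of the 10 genes (x axes, with 95% intervals) for combination, vestitol and salviolone mice, each against model control mice, and for model control against wild type mice; filled points have an adjusted p under 0.05 by edgeR. Filled points are seen for Notch3 and Rgs5 in the combination and wild type comparisons, with signs turned round between them, and the model control mice are in all 4 panels.

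Between treated groups, combination against vestitol mice had 2 of 10 members lower, Abcc9 and Rgs5, and 0 higher (4 at an unadjusted p under 0.05 in either direction, 0 higher by DESeq2). Of all genes 21.9% were called there, 11.3% higher and 10.6% lower, and 33.5% had an unadjusted p under 0.05. Combination against salviolone mice had 1 member higher, Notch3, and 0 lower (1 at an unadjusted p under 0.05 in either direction, 0 lower by DESeq2). Of all genes 17.9% were called there, 9.66% higher and 8.23% lower, and 29.6% had an unadjusted p under 0.05. Vestitol against salviolone mice, at the same dose of 5 mg/kg, had 0 of 10 called by edgeR and 0 by DESeq2, with 3 at an unadjusted p under 0.05. Of all genes 0.684% were called there and 11.7% had an unadjusted p under 0.05. In the first 2 of these comparisons the doses differ, since the combination holds 2.5 mg/kg of each compound.

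Notch3, the receptor that smooth muscle cells and pericytes use for Notch signalling, lies at chr17:32339794-32385826 in the files' build mm39. It had 35.5, 37.5, 35.9, 38.5 and 39.7 CPM in combination mice 1 to 5. It had 30.8, 35.7, 30.9, 35.5 and 32.2 CPM in vestitol mice, and 28.7, 28.6, 31.3, 24.0 and 32.3 CPM in salviolone mice. It had 33.1, 34.6, 29.3, 27.2 and 27.7 CPM in model control mice, against 32.1, 33.7, 39.4, 42.6 and 36.0 CPM in wild type mice. Every combination mouse was above every model control and every salviolone mouse, while the model control and wild type ranges overlapped through model control mice 1 and 2 and wild type mice 1 and 2. The 300-base promoter entry of Notch3 in RefSeq (build GRCm38.p6) gives the 250 bases before the annotated start, shown because the gene was called in 3 comparisons, with 4 copies of the GC box GGGCGG, on either strand, in capitals (chr17:32166891-32167140, minus strand).
Notch3: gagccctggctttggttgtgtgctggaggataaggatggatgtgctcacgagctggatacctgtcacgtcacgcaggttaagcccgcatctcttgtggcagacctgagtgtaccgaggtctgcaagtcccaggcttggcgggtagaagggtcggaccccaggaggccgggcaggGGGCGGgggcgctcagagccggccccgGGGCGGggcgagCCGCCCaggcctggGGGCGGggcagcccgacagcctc

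The means were 37.4 ± 1.75 CPM in combination mice, 33.0 ± 2.43 CPM in vestitol mice, 29.0 ± 3.22 CPM in salviolone mice, 30.4 ± 3.30 CPM in model control mice and 36.7 ± 4.27 CPM in wild type mice (SD, n = 5 each). Notch3 was 1.23-fold higher in combination than in model control mice (log2 fold change 0.30 ± 0.09 SE, edgeR adjusted p 0.0178), with 5 of 5 combination mice above the model control mean. It was 1.29-fold higher in combination than in salviolone mice (0.37 ± 0.09, adjusted p 0.00323). In model control mice it fell by 17.4% relative to wild type (log2 fold change -0.28 ± 0.09, adjusted p 0.0364). Against vestitol mice the combination gave 0.18 (95% interval 0.00 to 0.36, adjusted p 0.139). Vestitol against model control gave 0.12 (-0.06 to 0.30, adjusted p 0.787) and salviolone against model control -0.07 (-0.24 to 0.11, adjusted p 0.825). Neither single compound at 5 mg/kg therefore gave a called difference, with intervals that reach 0.30 and 0.11.

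The call for combination against model control was lost without model control mouse 4 (adjusted p 0.0617), model control mouse 5 (0.0563) or combination mouse 5 (0.0529), with log2 fold changes of 0.26, 0.27 and 0.27. The call for model control against wild type was lost without model control mice 3, 4 or 5 (adjusted p 0.0734, 0.108 and 0.10) and without wild type mice 3, 4 or 5 (0.0859, 0.146 and 0.0554), and also when only those 2 groups were fitted (0.114). The call against salviolone mice held in all 10 fits that left out 1 mouse. A fit with only combination mice 1 and 2 was added after the data were seen. In it Notch3 was not called against model control (log2 fold change 0.26, adjusted p 0.194) or salviolone mice (0.33, adjusted p 0.0838). The mean log2 CPM of the 10 hypothalamus markers was 1.32 to 3.99 in combination mice, -0.65 to 1.46 in model control mice and -1.12 to 3.06 in wild type mice, and 7 of the 10 were higher in combination than in model control mice (median log2 fold change 2.90) and 4 were lower in model control than in wild type mice (median -1.57). With that mean as a covariate, added after the data were seen, the Notch3 difference was 0.09 for combination against model control (adjusted p 0.853), 0.17 for combination against salviolone (adjusted p 0.596) and -0.17 for model control against wild type (adjusted p 0.335). In the fit with that covariate 0 genes of the whole table were called in combination against model control mice, so that every call given here for that comparison was lost there. The covariate nearly separated these 2 groups and was higher in every combination mouse than in every vestitol or salviolone mouse. Such a fit can hardly tell the covariate from the group, so a call lost there decides nothing about tissue content. The part of tissue content in the Notch3 difference was not tested.

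**Figure D3:**
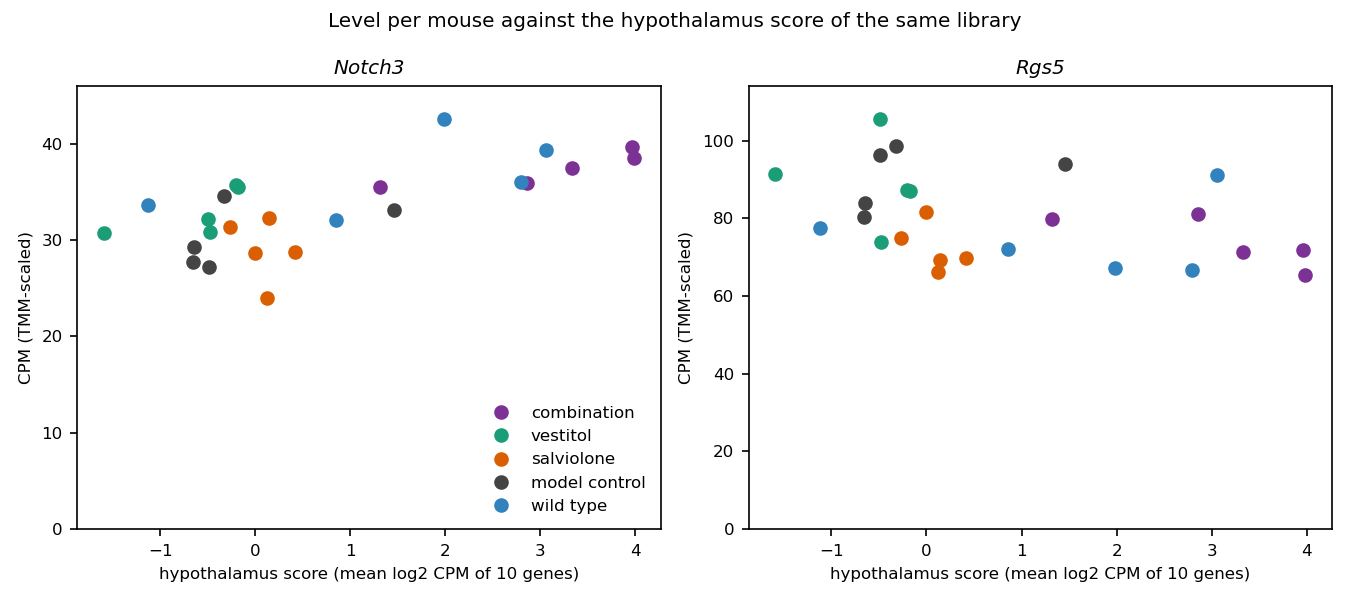
CPM of Notch3 and of Rgs5 (y axes, from 0) in each mouse against the mean log2 CPM of 10 hypothalamus markers in the same library (x axes), coloured by group. The 5 combination mice lie between 1.32 and 3.99 on the x axes, with 4 of them above every model control mouse, whose highest value is 1.46.

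Some genes around Notch3 in its pathway were called in the same comparisons, and most were not. Of 12 ligands, other receptors and target genes, 5 were higher and 0 lower in combination than in model control mice (median 0.24), where 7.83% of all genes were higher. In model control against wild type mice 0 were higher and 4 lower (median -0.14), where 6.21% of all genes were lower. Nrarp, a Notch-induced feedback regulator, had 22.2 ± 2.08 CPM in combination mice against 13.9 ± 1.16 CPM in model control mice (log2 fold change 0.67, adjusted p 0.000498). It had 13.9 ± 1.16 CPM in model control mice against 21.4 ± 3.38 CPM in wild type mice (-0.62, adjusted p 0.00168). The combination and model control ranges of Nrarp did not overlap, at 19.6 to 25.4 CPM in combination and 12.7 to 15.3 CPM in model control mice.

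The target Heyl, a transcription factor that in vessels is expressed by mural cells, had 9.98 ± 1.16 CPM in combination mice against 5.27 ± 1.40 CPM in model control mice (log2 fold change 0.92, adjusted p 0.00295). Its model control mean stood against 9.61 ± 1.81 CPM in wild type mice (-0.87, adjusted p 0.00702). Among ligands, Dll1 was higher in combination than in model control mice (0.84, adjusted p 0.000538) and lower in model control than in wild type mice (-0.48, adjusted p 0.0321), and Jag2 likewise by 0.25 (adjusted p 0.0138) and -0.22 (adjusted p 0.0373). The fifth gene higher in the combination was the target Hey2 (0.83, adjusted p 0.0393), at 3.32 ± 0.252 CPM in combination and 1.87 ± 0.779 CPM in model control mice, named after its values were seen. The receptors Notch1, Notch2 and Notch4 had log2 fold changes of 0.09, -0.03 and 0.22 in combination against model control mice, with adjusted p-values of 0.389, 0.865 and 0.434. In vestitol against model control mice edgeR called 0 of the 12 (1 at an unadjusted p under 0.05, 0 by DESeq2), and likewise 0 in salviolone against model control mice (1 at an unadjusted p under 0.05, 0 by DESeq2).

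The count higher in the combination was 4 to 6 when 1 mouse was left out. Nrarp, Heyl, Dll1 and Jag2 were called in each of those 10 fits, and Hey2 was lost in 7 of them, without model control mouse 2, 4 or 5 or combination mouse 1, 2, 4 or 5. With only combination mice 1 and 2 the count was 4, of which 3 were among the 5: Heyl (adjusted p 0.0560) and Hey2 (0.141) were lost, and the ligand Jag1 was gained (0.51, adjusted p 0.0231). With the hypothalamus marker mean as a covariate the count was 0, with Nrarp at 0.57 (adjusted p 0.347). The 4 lower in model control mice became 2 without model control mouse 2, 4 or 5 or wild type mouse 3 or 4, 2 when only those 2 groups were fitted, and 1 with the covariate, Nrarp at -0.56 (adjusted p 0.0331). Notch ligands and targets are also expressed by endothelium, neurons and glia, and a bulk library cannot assign the difference to a cell type.

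**Figure D4:**
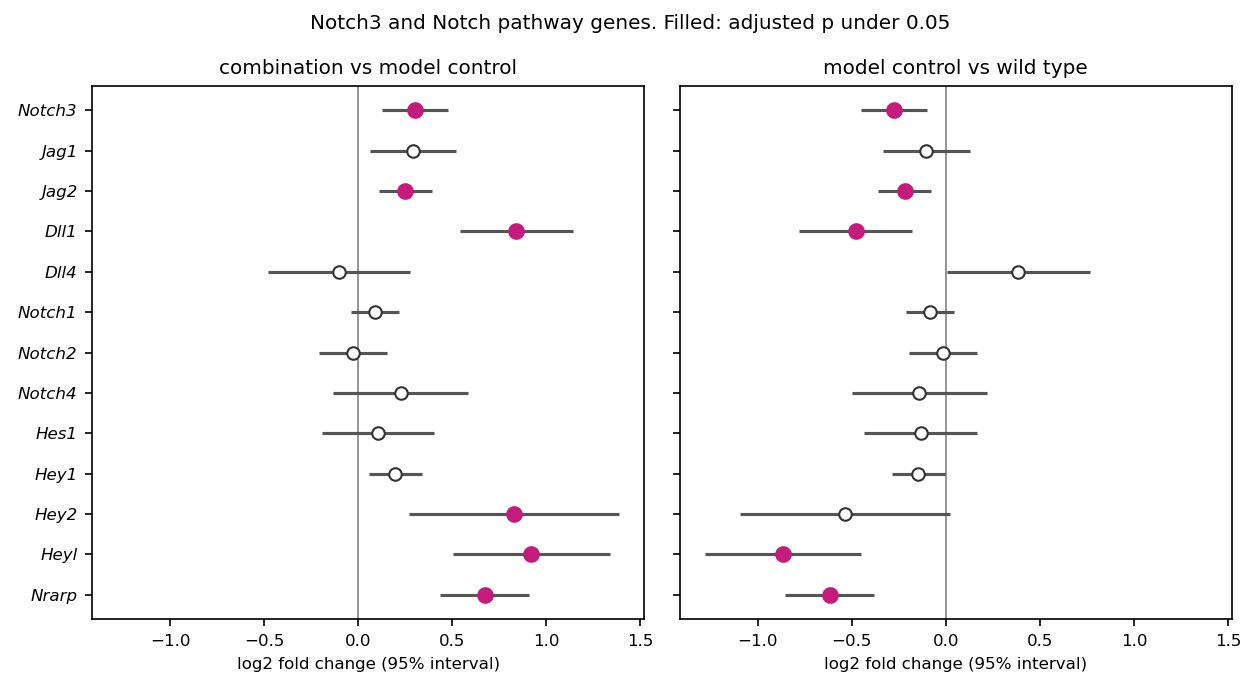
Log2 fold change (x axes, with 95% intervals) of Notch3 and 12 Notch ligands, other receptors and targets for combination against model control mice and for model control against wild type mice; filled points have an adjusted p under 0.05. Beside Notch3, 5 genes are filled to the right of 0 for the combination and 4 to the left of 0 for model control; the panels share the model control mice.

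Pdgfrb, the PDGF-B receptor that pericytes need, lies at chr18:61178222-61218133. It had 39.9, 33.7, 33.4, 36.1 and 41.0 CPM in combination mice, 32.1, 38.6, 37.1, 40.0 and 43.2 CPM in vestitol mice and 31.0, 40.6, 40.2, 33.3 and 39.7 CPM in salviolone mice. It had 35.4, 38.9, 30.6, 31.6 and 36.2 CPM in model control mice, against 38.1, 35.2, 41.0, 39.0 and 36.0 CPM in wild type mice. All 5 ranges overlapped, and the gene was called in no comparison. The log2 fold change was 0.09 for combination against model control (95% interval -0.09 to 0.27, adjusted p 0.543) and -0.13 for model control against wild type (-0.31 to 0.05, adjusted p 0.376).

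Of the 5 other PDGF ligands and receptors, 1 was higher in combination than in model control mice and 1 lower in model control than in wild type mice, in both cases Pdgfra, the receptor of fibroblasts and oligodendrocyte precursors. Among all genes 7.83% were higher in the first comparison and 6.21% lower in the second. Pdgfra had 79.9 ± 5.82 CPM in combination mice against 60.5 ± 5.46 CPM in model control mice (log2 fold change 0.40, adjusted p 0.00580) and 84.7 ± 15.3 CPM in wild type mice (-0.48 for model control against wild type, adjusted p 0.00254). Pdgfb, the endothelial ligand of PDGFRB, had 33.2 ± 2.06 CPM in combination mice against 30.5 ± 5.83 CPM in model control mice (0.12, adjusted p 0.432). With the hypothalamus marker mean as a covariate both Pdgfra calls were lost, at 0.18 for combination against model control (adjusted p 0.706) and -0.36 for model control against wild type (adjusted p 0.0597). The first was also lost with only combination mice 1 and 2 (adjusted p 0.0501), and the second when only those 2 groups were fitted (adjusted p 0.0539).

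Rgs5, at chr1:169483070-169523382, had 79.8, 71.4, 81.1, 65.5 and 71.8 CPM in combination mice. It had 91.4, 87.4, 73.9, 87.0 and 106 CPM in vestitol mice, and 69.7, 81.7, 74.9, 66.3 and 69.3 CPM in salviolone mice. It had 94.1, 98.7, 84.1, 96.3 and 80.3 CPM in model control mice, against 72.2, 77.7, 91.2, 67.2 and 66.8 CPM in wild type mice. Model control and vestitol mice were high, and combination, salviolone and wild type mice low, with overlap between combination mouse 3 and model control mouse 5, between salviolone mouse 2 and model control mouse 5, and with wild type mouse 3 above model control mice 3 and 5. Vestitol mouse 3 was low within its group. The RefSeq promoter of Rgs5 (GRCm38.p6, chr1:169655251-169655500, plus strand) is shown because the gene was called in 3 comparisons, with the one TATATA, on either strand, in capitals, starting 30 bases before the annotated start.
Rgs5: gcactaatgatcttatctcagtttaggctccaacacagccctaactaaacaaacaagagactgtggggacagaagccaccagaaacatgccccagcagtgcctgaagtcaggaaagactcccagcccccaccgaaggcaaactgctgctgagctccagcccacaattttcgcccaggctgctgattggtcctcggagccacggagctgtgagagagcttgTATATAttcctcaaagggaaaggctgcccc

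Rgs5 averaged 73.9 ± 6.47 CPM in combination mice, 89.1 ± 11.4 CPM in vestitol mice, 72.4 ± 6.07 CPM in salviolone mice, 90.7 ± 8.05 CPM in model control mice and 75.0 ± 10.1 CPM in wild type mice (SD, n = 5 each). In combination mice it fell by 18.5% relative to model control mice (log2 fold change -0.30 ± 0.09, adjusted p 0.0275) and by 17.1% relative to vestitol mice (-0.27 ± 0.09, adjusted p 0.0336). In model control mice it was 1.21-fold higher than in wild type mice (0.27 ± 0.09, adjusted p 0.0492). In salviolone against model control mice the log2 fold change was -0.32 (95% interval -0.51 to -0.14), with an unadjusted p of 0.0014 and an adjusted p of 0.171, so that it missed the threshold in a comparison where 4 genes in all were called. Combination and salviolone mice differed by 0.03 (-0.16 to 0.22, adjusted p 0.879), vestitol and model control mice by -0.03 (-0.21 to 0.16, adjusted p 0.981), and vestitol and salviolone mice by 0.30 (0.11 to 0.49, adjusted p 0.143).

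For combination against model control mice the Rgs5 call was lost without model control mouse 2 (adjusted p 0.0746) or 4 (0.0708) and without combination mouse 2 (0.0540), 4 (0.0809) or 5 (0.0558). For combination against vestitol mice it was lost without vestitol mouse 1 (0.0651), 2 (0.0530) or 5 (0.124) and without combination mouse 2 (0.0640), 4 (0.0938) or 5 (0.0651). For model control against wild type mice it was lost without model control mouse 1 (0.0809), 2 (0.128) or 4 (0.115) and without wild type mouse 1 (0.104), 4 (0.146) or 5 (0.126). With the hypothalamus marker mean as a covariate the log2 fold change was -0.26 for combination against model control (adjusted p 0.583), -0.22 for combination against vestitol (adjusted p 0.582) and 0.25 for model control against wild type (adjusted p 0.201), all without a call. The call against wild type was also lost when only those 2 groups were fitted (adjusted p 0.113), with no count filter (0.0570) and in all 3 fits of the FPKM values (0.0654 to 0.0911). That against vestitol mice was lost in the same 3 FPKM fits (0.0592 to 0.0820), and that against model control mice in 1 of them, with no filter on low values (0.0622). With only combination mice 1 and 2 both combination calls were lost. The log2 fold change there was -0.26 against model control (adjusted p 0.209) and -0.24 against vestitol mice (adjusted p 0.225).

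Abcc9 and Kcnj8 encode the regulatory and the pore subunit of the vascular ATP-sensitive potassium channel, and they are neighbours on chromosome 6 with 16247 bases and 0 annotated genes of the table between them (Kcnj8 at chr6:142510563-142517340, Abcc9 at chr6:142533588-142648041). Abcc9 had 11.9, 10.8, 14.9, 14.2 and 17.5 CPM in combination mice, 16.2, 19.5, 13.6, 17.1 and 23.2 CPM in vestitol mice and 14.3, 14.1, 14.8, 13.6 and 13.9 CPM in salviolone mice. It had 15.7, 21.1, 16.0, 14.2 and 14.03 CPM in model control mice, against 15.0, 15.6, 16.8, 15.0 and 14.4 CPM in wild type mice. Combination mice 1 and 2 were the lowest of all 25 mice and vestitol mouse 5 the highest, and the combination and vestitol ranges overlapped. The RefSeq promoter of Abcc9 (GRCm38.p6, chr6:142702275-142702524, minus strand) is shown as that of the one channel gene that differed, with TGGGAA, the core bound by RBPJ, the DNA-binding partner of Notch, and the GC box GGGCGG, both searched on either strand, in capitals.
Abcc9: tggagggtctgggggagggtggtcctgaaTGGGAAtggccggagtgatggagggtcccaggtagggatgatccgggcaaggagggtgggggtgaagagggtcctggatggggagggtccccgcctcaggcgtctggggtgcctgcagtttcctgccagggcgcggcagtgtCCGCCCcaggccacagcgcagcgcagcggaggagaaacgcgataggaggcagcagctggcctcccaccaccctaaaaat

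In combination mice Abcc9 fell by 22.5% relative to vestitol mice (log2 fold change -0.37 ± 0.13, adjusted p 0.0430). The call was lost without vestitol mouse 2 (adjusted p 0.0988), 4 (0.0548) or 5 (0.168) and without combination mouse 1 (0.110), 2 (0.119) or 4 (0.0645); without vestitol mouse 5 the log2 fold change was -0.26. It was also lost when only those 2 groups were fitted (adjusted p 0.105), and in all 3 fits of the FPKM values (adjusted p 0.0671 to 0.0829), where the log2 fold change was -0.33 with a pseudocount of 0.1 and -0.22 with one of 1. With the hypothalamus marker mean as a covariate it was -0.51 (adjusted p 0.355). With only combination mice 1 and 2, a fit added after the data were seen, it was -0.66 and the call was kept. Those mice had 11.9 and 10.8 CPM. Combination mice 3, 4 and 5, which had the highest total counts, had 14.9, 14.2 and 17.5 CPM. Against model control mice the combination gave -0.22 (95% interval -0.49 to 0.04, adjusted p 0.270), and model control against wild type gave 0.08 (-0.19 to 0.35, adjusted p 0.765). Vestitol mouse 5 also had the highest summed CPM of 16 endothelial markers, at 767, against 499 to 596 in the combination group. Across combination against vestitol mice, 1 of those 16 was higher and 2 were lower, and the part of vessel content in the Abcc9 difference was not tested.

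Kcnj8 had 2.85 to 4.36 CPM in combination mice, 3.03 to 4.78 CPM in vestitol mice, 3.72 to 4.05 CPM in salviolone mice, 3.67 to 5.11 CPM in model control mice and 3.00 to 5.69 CPM in wild type mice. All ranges overlapped, and the gene was called in no comparison. Its log2 fold change was -0.18 for combination against model control (95% interval -0.53 to 0.16, adjusted p 0.524) and 0.09 for model control against wild type (-0.26 to 0.44, adjusted p 0.80). Of the 2 subunits of the channel type found mainly in neurons and endocrine cells, Abcc8 had 35.1 ± 5.31 CPM in combination mice against 55.9 ± 8.41 CPM in model control mice (-0.67, adjusted p 0.00357), and Kcnj11 was not called there. The share of all genes that were lower there was 7.13%. Cortical excitatory neuron markers were lower in the same comparison (3 of 5, median -0.60). The Abcc8 call was lost with the hypothalamus marker mean as a covariate (-0.18, adjusted p 0.804) and with only combination mice 1 and 2 (-0.59, adjusted p 0.107), and the part of tissue content in it was not tested.

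Vtn encodes vitronectin, a matrix protein that brain pericytes produce, and lies at chr11:78389946-78393150. It had 68.3, 57.3, 54.1, 65.1 and 79.2 CPM in combination mice, 46.1, 60.0, 46.3, 58.2 and 64.4 CPM in vestitol mice and 48.5, 71.8, 58.0, 63.8 and 58.4 CPM in salviolone mice. It had 59.9, 66.5, 53.8, 49.8 and 53.3 CPM in model control mice, against 62.0, 62.4, 62.3, 71.9 and 56.7 CPM in wild type mice. The groups overlapped in every comparison. The log2 fold change was 0.19 for combination against model control (95% interval -0.04 to 0.43, adjusted p 0.277), 0.24 for combination against vestitol (0.00 to 0.47, adjusted p 0.144) and -0.15 for model control against wild type (-0.39 to 0.08, adjusted p 0.430).

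Anpep, at chr7:79471551-79510807, encodes the aminopeptidase CD13 on the pericyte surface. It had 3.08 to 5.58 CPM in combination mice, 3.11 to 4.38 CPM in vestitol mice, 3.81 to 6.32 CPM in salviolone mice, 2.39 to 6.13 CPM in model control mice and 3.58 to 6.23 CPM in wild type mice. It was called in no comparison, and with its wide spread the intervals are wide: -0.05 for combination against model control (95% interval -0.49 to 0.39) and -0.31 for model control against wild type (-0.75 to 0.14). Of 22 other pericyte genes, edgeR called 0 in combination against model control mice (3 at an unadjusted p under 0.05, 0 by DESeq2) and 0 in model control against wild type mice (7 at an unadjusted p under 0.05, of which the lowest 2 were Casq2 and Cspg4 with adjusted p-values of 0.0566 and 0.0597; 3 by DESeq2, 1 higher and 2 lower). By edgeR 15.0% of all genes were called in the first comparison, and 28.0% had an unadjusted p under 0.05. In the second these shares were 11.6% and 25.8%. Cspg4 is also expressed by oligodendrocyte precursors, so its level in bulk cortex is not that of pericytes alone. With 1 mouse left out, up to 2 of the 22 were higher and up to 3 lower in model control than in wild type mice.

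The contractile genes were called in no comparison. Acta2, smooth muscle alpha actin (chr19:34218490-34232990), had 8.08, 9.04, 10.1, 7.71 and 11.6 CPM in combination mice, 7.23, 9.19, 8.32, 7.52 and 9.70 CPM in vestitol mice and 5.93, 14.7, 9.24, 6.27 and 10.4 CPM in salviolone mice. It had 7.17, 10.4, 8.03, 7.22 and 9.52 CPM in model control mice, against 8.07, 11.4, 9.90, 11.8 and 8.15 CPM in wild type mice. Salviolone mouse 2 was the highest of all 25, and all groups overlapped. The log2 fold change was 0.13 for combination against model control (95% interval -0.26 to 0.52, adjusted p 0.700) and -0.22 for model control against wild type (-0.61 to 0.17, adjusted p 0.514).

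Myh11, the smooth muscle myosin heavy chain (chr16:14012399-14109236), had 14.1, 11.7, 11.9, 10.6 and 12.9 CPM in combination mice, 7.63, 9.75, 8.83, 9.32 and 13.0 CPM in vestitol mice and 7.71, 14.2, 8.80, 8.46 and 11.5 CPM in salviolone mice. It had 10.0, 12.5, 12.6, 9.53 and 10.3 CPM in model control mice, against 8.81, 10.4, 11.4, 16.8 and 13.0 CPM in wild type mice. All 5 combination mice were above the vestitol mean and 4 of the vestitol mice were below the combination range, yet the difference of 0.34 missed the threshold (95% interval -0.01 to 0.69, adjusted p 0.162). It was 0.16 for combination against model control (-0.19 to 0.51, adjusted p 0.593).

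Tagln, the actin-binding protein transgelin (chr9:45840917-45847356), had 5.89 to 8.61 CPM in combination mice, 5.11 to 7.99 CPM in vestitol mice, 4.67 to 7.83 CPM in salviolone mice, 5.88 to 7.11 CPM in model control mice and 6.23 to 9.90 CPM in wild type mice. Its log2 fold change was 0.12 for combination against model control (95% interval -0.21 to 0.44, adjusted p 0.692) and -0.21 for model control against wild type (-0.54 to 0.12, adjusted p 0.448). Tagln overlaps Pcsk7, which averaged 39.1 CPM, and since no source used here gives the strand setting of the counting, reads of the pair may not have been kept apart.

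Of 20 other smooth muscle genes, not all of them contractile, 2 were higher and 0 lower in combination than in model control mice. Of all genes 7.83% were higher and 7.13% lower there. The 2 were Nrip2 (0.79, adjusted p 0.00101) and Sncg (1.56, adjusted p 0.00864), which are markers rather than contractile genes and are also expressed by neurons. In model control against wild type mice 0 were higher and 2 lower, where 5.37% of all genes were higher and 6.21% lower. The 2 were Nrip2 (-0.53, adjusted p 0.0215) and Ppp1r12b, a myosin phosphatase subunit (-0.17, adjusted p 0.0232). The count of genes lower there was 0 without model control mouse 4 or wild type mouse 4. It reached 4 in other fits with 1 mouse left out. With the hypothalamus marker mean as a covariate all these calls were lost, with Nrip2 at 0.39 (adjusted p 0.562) and Sncg at 0.49 (adjusted p 0.808) for combination against model control, and Nrip2 at -0.32 (adjusted p 0.263) and Ppp1r12b at -0.20 (adjusted p 0.0539) for model control against wild type. The list's median was 0.11 for combination against model control and -0.15 for model control against wild type. Among 5 factors of the SRF and myocardin system, which drives contractile genes, the coactivator Mrtfa was higher in combination than in model control mice (0.25, adjusted p 0.00730) and lower in model control than in wild type mice (-0.21, adjusted p 0.0228), and Mef2c, which cortical neurons also express, was lower in the combination (-0.50, adjusted p 0.0281). The Mrtfa call for model control against wild type was lost without model control mouse 2 (adjusted p 0.0598) or 4 (0.0539), without wild type mouse 4 (0.0849) and when only those 2 groups were fitted (0.0514). The Mef2c call was lost without model control mouse 4 (0.0987) or 5 (0.0545), without combination mouse 4 (0.0835) or 5 (0.0796) and when only those 2 groups were fitted (0.0729). With the covariate Mrtfa was at 0.24 for combination against model control (adjusted p 0.454) and -0.21 for model control against wild type (adjusted p 0.112), and Mef2c was at -0.09 (adjusted p 0.924).

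Of 12 vasoactive receptors, 2 were higher and 1 lower in combination than in model control mice, and 1 was higher and 2 lower in model control than in wild type mice, in both cases Adra2a, Gucy1a1 and Adra1d. Of all genes 7.83% were higher and 7.13% lower in the first comparison, and 5.37% higher and 6.21% lower in the second. The adrenergic receptor Adra1d had 13.6 ± 2.58 CPM in combination mice against 31.4 ± 6.85 CPM in model control mice (log2 fold change -1.21, adjusted p 0.000728), and 16.9 ± 7.62 CPM in wild type mice (0.89 for model control against wild type, adjusted p 0.00829). Adra2a had 22.8 ± 0.613 CPM in combination mice against 13.7 ± 3.66 CPM in model control mice (0.74, adjusted p 0.0119), and 25.1 ± 8.05 CPM in wild type mice (-0.88, adjusted p 0.00572). Gucy1a1, a subunit of the nitric oxide receptor guanylate cyclase, was at 0.24 for combination against model control (adjusted p 0.0261) and -0.25 for model control against wild type (adjusted p 0.0240). All 3 are also expressed by neurons, and cortical excitatory neuron markers were lower in the combination (3 of 5, median -0.60) and striatum markers higher (5 of 6, median 0.60); the part of this in these receptors was not tested. With the hypothalamus marker mean as a covariate all 6 calls were lost, with Adra1d at -0.45 (adjusted p 0.587) and Adra2a at 0.21 (adjusted p 0.839) for combination against model control. When only model control and wild type mice were fitted, the 3 calls between them were lost too (adjusted p 0.0957 to 0.112). Gucy1a1 was lost in 5 of 10 fits with 1 mouse left out for combination against model control and in 6 of 10 for model control against wild type.

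Across these 7 lists, 78 genes in all, edgeR called 0 in vestitol against model control mice (7 at an unadjusted p under 0.05, 0 by DESeq2) and 0 in salviolone against model control mice (7 at an unadjusted p under 0.05, 0 by DESeq2). In combination against model control mice it called 11 higher and 3 lower, where 15.0% of all genes were called, 7.83% higher and 7.13% lower. In model control against wild type mice it called 1 higher and 10 lower, where 11.6% of all genes were called, 5.37% higher and 6.21% lower. Counted in either direction, the share of the 78 was near that of all genes in both comparisons. By direction, the 11 higher in the combination and the 10 lower in model control mice lay above the shares of 7.83% and 6.21%. Of these, 5 and 4 belonged to the 12 Notch genes. The comparisons share the model control mice, the lists were chosen with earlier results of these data known, and no set was tested.

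Endothelial markers gave no call in combination against model control mice or in model control against wild type mice. Among all genes 15.0% and 11.6% were called in these comparisons. The part of vessel content in the Notch3 and Rgs5 differences was not tested. In combination against vestitol mice, where Rgs5 and Abcc9 were called, 1 of the 16 was higher and 2 were lower (1 and 3 by DESeq2). Of all genes 11.3% were higher and 10.6% lower there. Summed CPM of the endothelial markers was 499 to 596 in combination mice, 530 to 767 in vestitol mice, 464 to 590 in salviolone mice, 504 to 611 in model control mice and 477 to 612 in wild type mice. Of the 16, edgeR called 0 in combination against model control mice (2 at an unadjusted p under 0.05, 0 by DESeq2) and 0 in model control against wild type mice (3 at an unadjusted p under 0.05, 1 higher by DESeq2). With 1 mouse left out the second count reached 1 higher without model control mouse 4 or wild type mouse 2, and 2 higher without wild type mouse 3. Markers of meningeal and perivascular fibroblasts, cells that also express Pdgfrb, summed to 148 to 228 CPM in combination mice, 103 to 123 CPM in vestitol mice, 116 to 232 CPM in salviolone mice, 119 to 179 CPM in model control mice and 177 to 252 CPM in wild type mice. Of the 14, 1 was higher in combination than in model control mice, where 7.83% of all genes were higher. That gene was Pdgfra, already given above among the PDGF receptors and also expressed by oligodendrocyte precursors. In combination against vestitol mice 6 were higher, where 11.3% of all genes were higher. In model control against wild type mice 3 were lower, Pdgfra again among them, where 6.21% of all genes were lower. The part of these fibroblasts in the mural genes was not tested. Leaving out model control mouse 2, model control mouse 3, wild type mouse 3 or wild type mouse 4 gave 1 in place of the last count, leaving out wild type mouse 2 gave 5, and fitting only those 2 groups gave 0. The count for combination against model control was 2 without model control mouse 1 and when only those 2 groups were fitted, and 0 with only combination mice 1 and 2. All 3 counts were 0 with the hypothalamus marker mean as a covariate.

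Between mice of the same group the 10 genes tended to vary together. Log2 CPM was centred within each group, and r was positive in 44 of 45 pairs of genes over the 25 mice, with a median of 0.31 and a range of -0.07 to 0.75. All pairs share the libraries, their dissection and their vessel content. Of the 45 pairs, 3 passed a Benjamini-Hochberg adjusted p under 0.05 by Pearson's r with permutation within groups (100000 resamples), and 1 passed by Spearman's rho as well. That pair was Pdgfrb and Vtn, with r = 0.75 (adjusted permutation p 0.00900) and rho = 0.71 (adjusted permutation p 0.0369), and r = 0.67 without the 2 mice farthest from the median of Pdgfrb.

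The contractile pair Acta2 and Myh11 had r = 0.69 (adjusted permutation p 0.0270), rho = 0.67 (adjusted permutation p 0.0540) and r = 0.55 without the 2 farthest mice. Vtn and Myh11 had r = 0.60 (adjusted permutation p 0.0295), rho = 0.51 (adjusted permutation p 0.104) and r = 0.58 without the 2 farthest. The channel neighbours Kcnj8 and Abcc9 had r = 0.29 (adjusted permutation p 0.350) and rho = 0.21 (adjusted permutation p 0.525). Notch3 and Rgs5, which were called in opposite directions, had r = 0.13 within groups (adjusted permutation p 0.709).

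**Figure D5:**
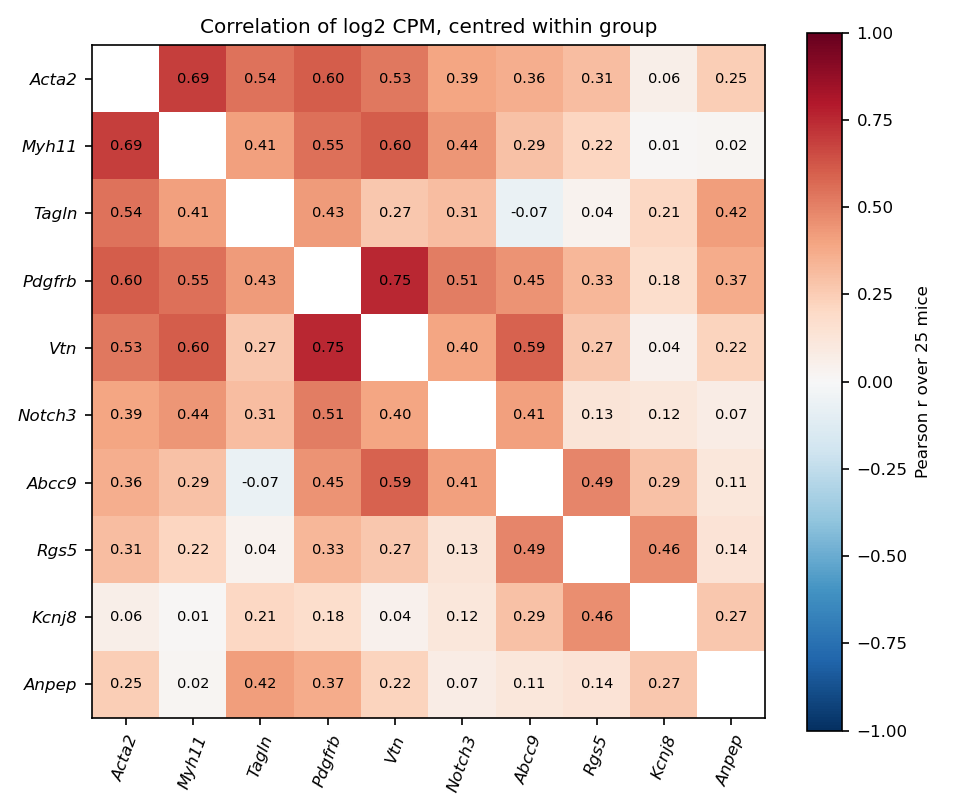
Pearson's r of log2 CPM, centred within group, for each pair of the 10 genes over 25 mice (colour scale from -1 to 1, value in each cell). The largest value, 0.75, is that of Pdgfrb and Vtn, and 44 of 45 pairs are above 0.

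Among 12699 other genes, those whose level followed the mean of Pdgfrb, Rgs5, Kcnj8, Abcc9 and Vtn most closely over the 25 mice, centred within group, were Tgm2 (r = 0.82), Epas1 (0.80), Pecam1 (0.80), Ptprb (0.79) and Vwf (0.79). Pecam1, Ptprb and Vwf are endothelial genes. Those closest to the mean of Acta2, Tagln and Myh11 were Tmem140 (0.72), Itih2 (0.72), Slc6a13 (0.71), Lama1 (0.71) and Serping1 (0.71), of which Slc6a13 is a transporter of meningeal fibroblasts. These are descriptions over 25 libraries that share depth and dissection, ranked out of all genes, with no test.

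RefSeq held a promoter for 7 of the 10 members: Notch3, Kcnj8, Abcc9, Rgs5, Vtn, Anpep and Acta2. In the 250 bases before the start, searched on both strands, TGGGAA was found in 3 of the 7 (Abcc9, Vtn and Acta2), against 21.6% of 32851 mouse promoters of that length, and not in the Notch3 window. The GC box GGGCGG was found in 3 of 7 (Notch3, Abcc9 and Anpep), against 32.7% of all promoters, and TATATA in 1 of 7, Rgs5, against 5.25%. The CArG box, the element bound by SRF, was found in 0 of 7, against 1.47% of all promoters, which says no more than that its strict form is not in these windows. GC content was 68.8% for Notch3, 66.8% for Abcc9 and 53.6% for Rgs5, against a median of 52.4% over all promoters. The 3 members called in a comparison therefore do not share one of these motifs.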

How the data were processed

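Per the labels' protocols, libraries were made from 2 µg of total RNA, with a TruSeq RNA kit V2 and a SMARTER mRNA-Seq kit both named. Per the submitters' processing notes, Trim Galore and STAR were used, with the build mm39. No source used here gives their versions, or the tool, strand setting or gene models of the counting. The authors deposited raw counts per gene and FPKM, which they had scaled by library size and gene length, for the same 25 mice. Of counts from 4 to 39, 44.3% were multiples of 4, for which no source gives a reason.

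Counts were tested with edgeR 4.0.16 (R 4.3.3): filterByExpr with a minimum count of 10 kept 16515 genes, TMM factors were 0.98 to 1.04, and glmQLFit (robust) with 1 coefficient per group and glmQLFTest gave log2 fold changes, SE, 95% intervals and Benjamini-Hochberg adjusted p-values over all genes kept. Correlations used scipy 1.17.1. Alternatives were DESeq2 1.42.0, RLE factors, no filter, only the groups compared, a replicate block, counts divided by 4, limma 3.58.1 on log2(FPKM + 1) with genes of mean FPKM of at least 0.5, without that filter or with a pseudocount of 0.1, and each mouse left out. After the data were seen, a hypothalamus marker covariate and a fit with only combination mice 1 and 2 were added. The covariate nearly separated combination mice from model control, vestitol and salviolone mice, so calls lost under it do not tell tissue content from group. Procedures were tested on simulated data. No 2 libraries were identical, and the smallest chi-square per degree of freedom between libraries of a group was 35.9, far above sampling noise.

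The 10 genes and all lists were chosen with earlier results of these data known. All 10 members are reported; of other lists, counts, medians and at most 4 called genes a list and comparison, smallest adjusted p first, are given. The genes most alike were ranked among those with a mean log2 CPM of at least 1. Errors come from differences among mice, which include counting error at these depths (59376320 to 109776852 counts per library).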

Additional observations from a re-analysis of the deposited data

Results flagged for a closer look

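In model control mouse 2 both subunits of the vascular ATP-sensitive potassium channel stood apart upwards from the other 4 mice of the group by Dixon's criterion at 95%. Kcnj8 was at 5.11 CPM there, against 3.67 to 3.96 CPM in the others, and Abcc9 was at 21.1 CPM, against 14.03 to 16.01 CPM in the others. These were 2 of 50 sets of 1 gene in 1 group, and chance flags about 1 in 20.

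Treated groups differed from each other in a direct test for 3 genes. Abcc9 had a log2 fold change of -0.37 and Rgs5 of -0.27 in combination against vestitol mice, and Notch3 of 0.37 in combination against salviolone mice. The shares of all genes called were 21.9% against vestitol mice and 17.9% against salviolone mice. With 1 mouse left out, the Abcc9 and Rgs5 calls were each kept in 4 of 10 fits and the Notch3 call in 10. In each case the groups share the transgenes and strain, and the doses differ. The hypothalamus marker mean differs too, being higher in every combination mouse than in every vestitol or salviolone mouse.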

How the results depend on the processing

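Over 1430 recomputed log2 fold changes of the 10 genes, 1370 kept their side of the threshold, 60 lost a call and 0 reversed a call. Most of the 1430 belong to differences not called in the main fit, which had no call to lose. All 60 losses fell on the calls of Notch3, Rgs5 and Abcc9. With 1 mouse left out, these calls were each kept in 4 to 10 of 10 fits. Of 10 or 11 other settings, they were each kept in 3 to 9. Members called higher in model control against wild type numbered 1, and 0 with no count filter, only the 2 groups, the replicate block, log2(FPKM + 1), log2(FPKM + 0.1), log2(FPKM + 1) with no filter, or the hypothalamus covariate; leaving out 1 mouse gave 0 to 1. Members lower there numbered 1, and 0 with only the 2 groups, the replicate block or the covariate; leaving out 1 mouse gave 0 to 1. For combination against model control, 1 higher became 0 with the covariate and with only combination mice 1 and 2, and 1 lower became 0 under these and log2(FPKM + 1) with no filter; leaving out 1 mouse gave 0 to 1 for each. For combination against vestitol, 2 lower became 1 with only the 2 groups, the replicate block or only combination mice 1 and 2, and 0 under the 3 FPKM fits or the covariate; leaving out 1 mouse gave 0 to 2. For combination against salviolone, 1 higher became 0 with the covariate and with only combination mice 1 and 2, and stayed at 1 with each mouse left out. The causes were not tested, except that fits with fewer mice have fewer degrees of freedom.

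Replicate numbers do not pair the mice: deviations of same-numbered mice correlated at -0.0921 to 0.0910 in 50 pairs, and 18 of 100 comparisons had a mouse closest to its own number. The block is therefore no test of pairing; it ended 1 call each of Notch3 (adjusted p 0.0546) and Rgs5 (0.0584) in model control against wild type and of Abcc9 (0.0553) in combination against vestitol. Genes called over the whole table moved by over 1.5 times as follows: model control against wild type 1913, with 349 under only the 2 groups, 390 under the covariate and 954 to 2928 with 1 mouse left out; combination against model control 2471, with 0 under the covariate and 914 with combination mice 1 and 2 only; combination against vestitol 3609, with 18 and 1840; combination against salviolone 2954, with 96 and 1476; salviolone against model control 4, with 111 by DESeq2, 29 with the block, 10 under the covariate, 1 under only the 2 groups, 0 with RLE factors, no count filter or log2(FPKM + 1) with no filter, and 0 to 30 with 1 mouse left out; vestitol against model control 0, with 44 by DESeq2 and 0 to 2; and vestitol against salviolone 113, with 270 by DESeq2, 41 under only the 2 groups and 14 to 204. With RLE factors the median of all genes moved by at most 0.00622.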

Other observations

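The vascular pathway lists were also compared between the combination and each single compound, at different doses and with the combination mice shared. Of 12 Notch ligands, other receptors and targets, 4 were higher and 0 lower in combination than in vestitol mice, and 4 higher and 0 lower in combination than in salviolone mice: Dll1, Nrarp, Heyl and Hey1 in each case. Of all genes 11.3% were higher and 10.6% lower against vestitol mice, and 9.66% higher and 8.23% lower against salviolone mice. Hey1 was lost in 3 of 10 fits with 1 mouse left out against vestitol mice and in 4 of 10 against salviolone mice. Heyl averaged 9.98 ± 1.16 CPM in combination mice, 5.20 ± 1.55 CPM in vestitol mice and 5.15 ± 1.07 CPM in salviolone mice (SD, n = 5 each), and Dll1 11.6 ± 1.58, 5.64 ± 0.471 and 6.03 ± 1.07 CPM in the same groups.

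Both subunits of the neuronal type of ATP-sensitive potassium channel were lower in combination than in vestitol mice, Abcc8 with an adjusted p of 0.000203 and Kcnj11 with 0.0208, and lower in combination than in salviolone mice, with 9.5e-05 and 0.0373. Kcnj11 was lost in 2 of 10 fits with 1 mouse left out against vestitol mice and in 7 of 10 against salviolone mice. Kcnj11 averaged 53.5 ± 6.60 CPM in combination mice, 73.6 ± 9.20 CPM in vestitol mice and 71.8 ± 12.5 CPM in salviolone mice. Of the 12 vasoactive receptors, 3 were higher and 2 lower against vestitol mice, and 3 higher and 3 lower against salviolone mice. The endothelin receptor Ednrb was higher and the adrenergic receptors Adra1b and Adra1d were lower in both comparisons. Their log2 fold changes were 0.76, -0.56 and -1.21 against vestitol mice and 0.76, -0.91 and -1.39 against salviolone mice. Cortical excitatory neuron markers were lower in both comparisons (4 of 5 each, medians -0.68 and -0.70). Astrocyte markers were higher (2 of 5 and 3 of 5, medians 0.17 and 0.21). The summed hypothalamus markers, at 399 to 657 CPM in combination mice against 76.6 to 130 CPM in vestitol and 80.1 to 93.5 CPM in salviolone mice, moved with these differences. With the mean of those markers as a covariate every call of a named gene in these paragraphs was lost, with adjusted p-values of 0.147 or more, and the part of tissue content in them was not tested. That covariate was higher in every combination mouse than in every vestitol or salviolone mouse, so it cannot be told apart from group here.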
